A study of Cervus nippon with 4 samples.

Results

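Messenger RNA was sequenced from the longissimus dorsi, a long back muscle, of Shuangyang Sika deer at 4 ages. The library Msc_1 came from juvenile deer at 1 year, Msc_2 from adolescence at 3 years, Msc_3 from adult deer at 5 years, and Msc_4 from aged deer at 10 years. The dominant transcripts of this muscle were taken as the gene models with an FPKM (fragments scaled to gene model length and library size) of 1000 or more in every one of the 4 libraries. This rule gave 66 members out of 326981 gene models listed in at least 1 library, which is 0.0202% of them. The FPKM of all 4 libraries chose the members, so their high level is a description and not a finding, and the floor of 1000 FPKM also limits how far a member could vary. Each library was a pool of 3 deer and each age had 1 library, so that the spread between deer of one age was not measured, no test was run, and every difference below is between 2 libraries. All deer were of one breed and were fasted before slaughter, the sources used here name no treatment, and the groups differ by age in the labels.

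Skeletal muscle is known for a transcriptome in which few genes make up a large part of the messenger RNA. These are mainly genes of the sarcomere, the contractile unit of the fibre, where thick filaments of myosin pull on thin filaments of actin under the control of troponin and tropomyosin when calcium is released. Enzymes of glycolysis, creatine kinase, the oxygen store myoglobin and transcripts of the mitochondrial genome are the other abundant classes known in this tissue. The gene models are named only by an assembly component and a gene number, and the files do not pair these with gene names or sequences. No member could be assigned to one of these classes, the muscle label was not checked against markers, and the roles of the members are not given. The members are called by their rank in mean FPKM over the 4 libraries, from member 1, the highest, to member 66, and identifiers are printed only for 4 members, those with the largest differences in either direction between Msc_4 and Msc_1.

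The files listed between 170939 (Msc_3) and 182429 (Msc_4) gene models per library, and FPKM summed to between 761348 (Msc_1) and 825006 (Msc_3). Read counts and gene model lengths are not in the files, so the fragments behind a value are unknown and no counting interval can be given. In low values between 0.3 and 1.2 FPKM, the ratio of 2 libraries piled up at a log2 of -0.04 for Msc_2 over Msc_1, where 1 bin held 6.95% of gene models against a median of 0.417% per bin. It piled up at 0.03 for Msc_4 over Msc_3, a step that whole fragments leave in low values, and the depths were close within each of these pairs. Between Msc_3 and Msc_2 the fullest bin held 1.61% and no relative depth was read from it. The paper reports similar numbers of clean reads for all of the libraries, these included.

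The 66 members held 41.0% of the summed FPKM of Msc_1, 43.8% of Msc_2, 41.9% of Msc_3 and 40.6% of Msc_4. Over the 4 ages the share thus moved within a few percentage points, with the highest value at 3 years and the lowest at 10 years. From Msc_1 to Msc_4 the members' own sums were 312010, 334332, 345644 and 319525 FPKM. In the same order, all other gene models summed to 449338, 429028, 479362 and 467646 FPKM. The share was highest in Msc_2, where the other gene models summed to their lowest value. Without scaling, the members themselves summed to more in Msc_3. All gene models together summed to 763360 FPKM in Msc_2 and 825006 FPKM in Msc_3. Scaled to these totals, as in the share, the members were higher in Msc_2, so that their order rests on the scaling. Because FPKM is scaled to length, the percentages are shares of length-scaled abundance over gene models and not of sequenced fragments. Gene models of the same assembly component can be parts of each other, so a transcript could count more than once.

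Beside the members, gene models with 100 to 1000 FPKM in a library held between 19.4% (Msc_2) and 21.2% (Msc_4) of its FPKM. Those with 10 to 100 FPKM held between 17.7% (Msc_2) and 18.6% (Msc_1), and those with 1 to 10 FPKM between 13.0% (Msc_2) and 13.9% (Msc_4). Gene models below 1 FPKM together held between 3.77% (Msc_3) and 4.43% (Msc_1). The members thus held more of the FPKM in each library than any of these classes. To reach 50% of a library's FPKM took its 161 highest gene models in Msc_1, against 122 for Msc_2, 144 for Msc_3 and 160 for Msc_4. Msc_2 was the most concentrated by this count as well as by the members' share.

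**Figure D1:**
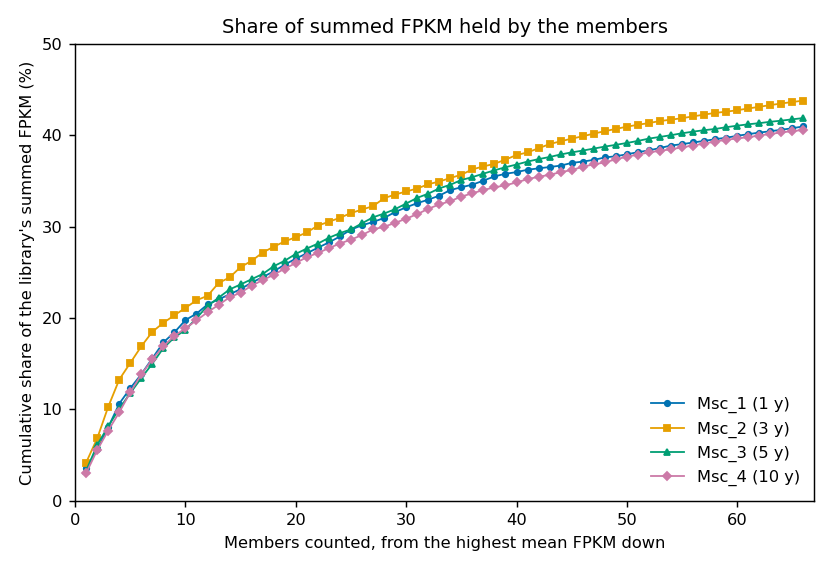
Cumulative share of each library's summed FPKM (y axis, %) against the number of members counted from the highest mean FPKM down (x axis), 1 line per library. The lines of Msc_1, Msc_3 and Msc_4 lie close together and end at 41.0%, 41.9% and 40.6%, and the line of Msc_2 ends at 43.8%.

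Within the members the FPKM was again concentrated in few. The 10 members with the highest mean FPKM held 48.3%, 48.2%, 44.7% and 46.5% of the members' FPKM from Msc_1 to Msc_4. As a share of the whole library, these 10 held 19.8%, 21.1%, 18.7% and 18.9%, and the 56 others held 21.2%, 22.7%, 23.2% and 21.7%. The surplus of Msc_2 over Msc_1 was found in both parts, whereas in Msc_3 the first 10 held less and the others more than in any other library. The first 5 members held 34.5% of the members' FPKM in Msc_2, against 28.1% to 30.0% in the other libraries. By mean level, 8 members were at 10000 FPKM or more, 11 between 5000 and 10000, 26 between 2000 and 5000, and 21 below 2000 FPKM. The mean of member 1 was 22.8 times that of member 66.

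Member 1 had the highest FPKM of all gene models in each library, with 26971, 31978.5, 27205 and 23834 FPKM from Msc_1 to Msc_4. It alone made up between 7.46% (Msc_4) and 9.56% (Msc_2) of the members' FPKM. Member 2 had 15796, 20133, 23192 and 19795 FPKM in the same order of libraries, lowest in the juvenile and highest in the adult library. Member 3 had 18463, 26429, 16880.41 and 16861 FPKM. Member 4 had 19711, 22737, 15784 and 15734 FPKM. Members 3 and 4 shared their shape, with the highest value in Msc_2 and nearly the same value in Msc_3 and Msc_4, below that of Msc_1.

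Member 5 had 12808, 13908, 14227 and 17289 FPKM, so that without scaling it was higher in each later library. As a share of the library's FPKM it was lower in Msc_3 (1.72%) than in Msc_2 (1.82%). Member 6 had 11768, 13884, 13523 and 15363 FPKM, also lowest in Msc_1 and highest in Msc_4. Member 7 had 13189.72, 12157, 13016 and 12983 FPKM. Its highest value was 1.08 times its lowest, the smallest ratio of the 66 members. Member 8 had 13305, 7489, 14097 and 11312 FPKM, a drop in Msc_2 that made it the most variable of the first 10, with a ratio of 1.88. Member 9 had 8358, 6311, 9620.43 and 9003 FPKM, also lowest in Msc_2. Member 10 was highest in Msc_1 with 10241 FPKM and had 6146, 6842 and 6399 FPKM in the later libraries. None of the first 10 members reached a 2-fold difference between any 2 libraries.

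**Figure D2:**
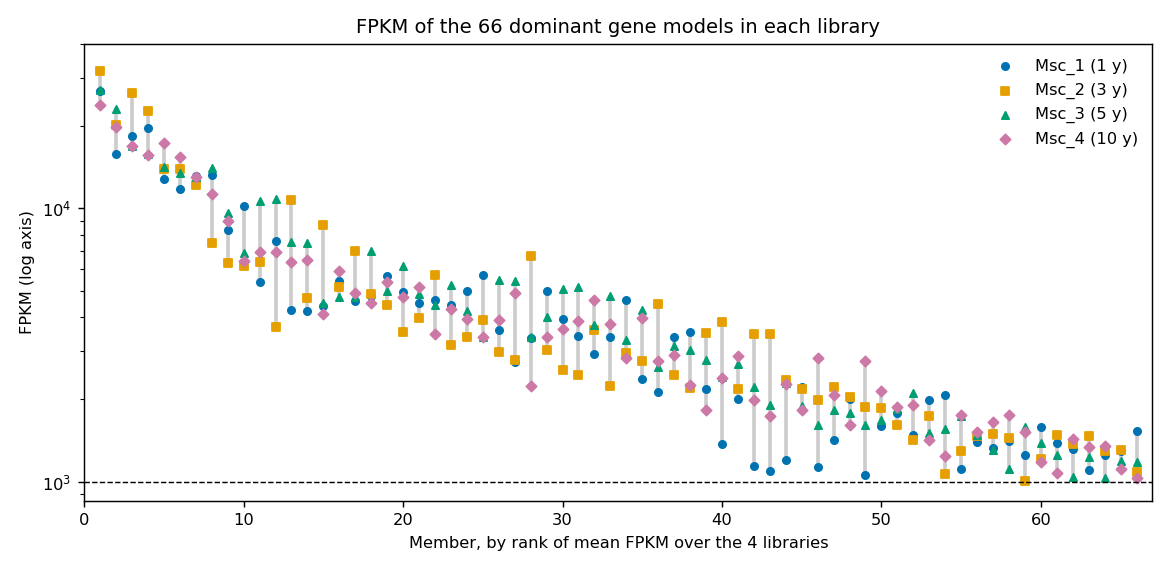
FPKM of each of the 66 members (y axis, log scale) by its rank in mean FPKM (x axis), 1 point per library, with a grey bar from the lowest to the highest value and a dashed line at 1000 FPKM. The points run from 31978.5 FPKM for member 1 in Msc_2 down to 1006 FPKM for member 59 in Msc_2, and the longest bars lie among the members ranked after the first 10.

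The rank order was most alike at the top. The same gene model was first in every library, 4 gene models were among the first 5 of every library, and 8 were among the first 10 of every library. The first 10 of the 4 libraries together named 14 gene models, all of them members. Between its best and its worst library, a member moved by a median of 13 places among the 66, and the first 10 moved by a median of 2.5 places and by no more than 6. Of the 66, 11 members moved by 5 places or fewer and 42 moved by 10 or more. The largest move was that of member 43, from place 30 in Msc_2 to place 65 in Msc_1.

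Across the 66 members, the Spearman rank correlation was 0.96 between Msc_3 and Msc_4 and 0.80 between Msc_1 and Msc_2. The other 4 pairs of libraries lay between 0.85 (Msc_1 and Msc_4) and 0.88 (Msc_1 and Msc_3). The median difference in place was 3 between Msc_3 and Msc_4 and 7 between Msc_1 and Msc_2. The correlation between the adult and the aged library was the highest of the 6 at thresholds of 500, 1000 and 2000 FPKM in each library and at a mean of 1000 FPKM or more, with values between 0.92 and 0.96. The lowest correlation depends on the threshold: at 2000 FPKM it was that of Msc_3 vs. Msc_2, at 0.67, with 0.72 for Msc_2 vs. Msc_1. These correlations are a description, since the members of a library share its depth and composition and are not replicates.

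The stability of the members was described by the ratio of the highest to the lowest FPKM over the 4 libraries. Its median was 1.58, and it reached from 1.08 in member 7 to 3.17 in member 43. The ratio was under 1.2 in 4 members. It was under 1.5 in 27 members (40.9%) and under 2 in 54 (81.8%). Over the 43196 gene models above 0.3 FPKM in all 4 libraries, 22.0% were under 1.5 and 52.1% under 2. Since the rule keeps a gene model only if its lowest value is high, nothing about stability is read from this contrast. The 605 gene models with a mean between 100 and 1000 FPKM had a median ratio of 1.57, with 43.1% under 1.5 and 72.1% under 2. The members were thus close to this next class of abundance at 1.5-fold. With members chosen by a mean of 1000 FPKM or more, which keeps gene models that dip below 1000, there were 77 members, a median ratio of 1.61, and 37.7% and 79.2% under the same limits. Between 10 and 100 FPKM the median ratio of 5419 gene models was 1.64, and between 1 and 10 FPKM that of 32415 gene models was 2.21.

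**Figure D3:**
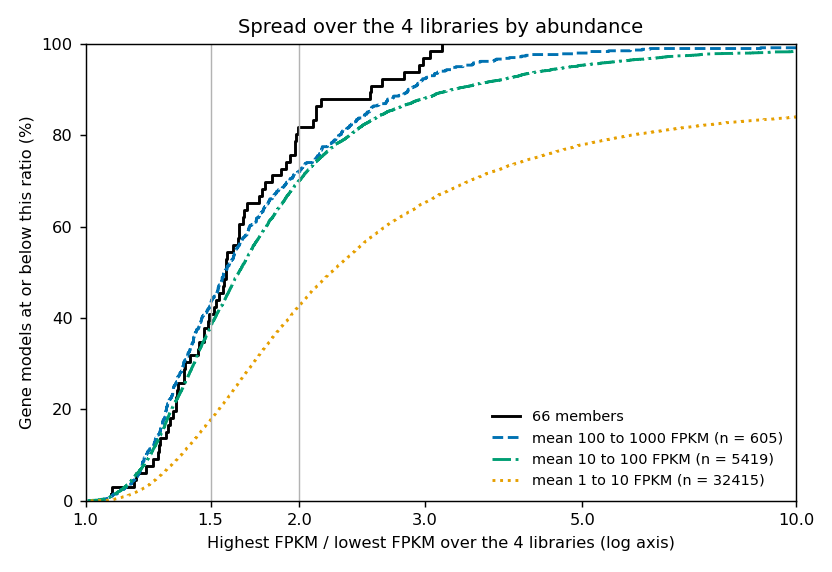
Share of gene models (y axis, %) at or below a given ratio of the highest to the lowest FPKM over the 4 libraries (x axis, log scale, cut at 10), for the 66 members and for 3 classes of mean FPKM. At 1.5-fold the members (40.9%) and the class of 100 to 1000 FPKM (43.1%) lie together, while the class of 1 to 10 FPKM lies at 17.6%, and no member passes a ratio of 3.17.

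The 4 steadiest members were members 7, 51, 56 and 65, 1 of them at the top and 3 in the lower part of the ranking. Member 51 had 1777, 1607, 1845 and 1880.15 FPKM from Msc_1 to Msc_4. Member 56 had 1399, 1466, 1479 and 1523 FPKM, a ratio of 1.09. Of the 45 members with a mean of 2000 FPKM or more, 13 were under 1.5-fold, and of the 21 below 2000 FPKM, 14 were. The floor stands closer to the latter, so that a member with a mean near 1000 FPKM could not have fallen far and stayed a member.

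Members were compared between 2 libraries on the scale of log2(FPKM + 0.1), and a difference of more than 1, which is 2-fold, was counted without a test. In Msc_2 vs. Msc_1, 5 members were higher and 1 member was lower by more than 2-fold, where 24.5% of all gene models compared were higher and 27.8% lower (52.4% in either direction). For Msc_3 vs. Msc_2, 3 members were higher and 0 lower, beside 27.7% and 23.1% of all gene models (50.8%). For Msc_4 vs. Msc_2, 0 members were higher and 2 lower, beside 28.4% and 21.8% (50.2%). For Msc_4 vs. Msc_1, 2 members were higher and 0 lower, beside 28.9% and 25.7% (54.6%). No member was past 2-fold in Msc_3 vs. Msc_1, beside 26.8% higher and 26.5% lower (53.3%), or in Msc_4 vs. Msc_3, beside 25.5% and 22.6% (48.1%). The limit of 1.5-fold was passed by 22 members in Msc_2 vs. Msc_1 (66.5% of all gene models), 21 in Msc_3 vs. Msc_2 (66.6%), 16 in Msc_4 vs. Msc_2 (64.5%), 17 in Msc_4 vs. Msc_1 (68.9%), 14 in Msc_3 vs. Msc_1 (68.3%) and 8 in Msc_4 vs. Msc_3 (62.7%). At both limits the comparison of Msc_2 with Msc_1 held the most members, and the comparison of Msc_4 with Msc_3 held no more than any other. The rule used the same values as these counts, so nothing is read from the contrast with all gene models.

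In all, 12 of the 66 members were past 2-fold in at least 1 comparison, and member 12 was past it in 2 comparisons. The median size of the log2 difference of the members was between 0.33 and 0.37 in each comparison that involves Msc_1 or Msc_2, and 0.19 in Msc_4 vs. Msc_3. The signed median was 0.04 in Msc_2 vs. Msc_1 (-0.08 over all gene models compared), 0.05 in Msc_3 vs. Msc_2 (0.13) and -0.10 for Msc_4 vs. Msc_3 (0.03). In Msc_3 vs. Msc_1 it was 0.09 (0.05), in Msc_4 vs. Msc_1 0.11 (0.08) and in Msc_4 vs. Msc_2 0.10 (0.16). With trimmed mean of M-values (TMM) scaling of the libraries, log2 differences moved by -0.16 in Msc_3 vs. Msc_2, and by -0.12 for Msc_4 vs. Msc_2. The members' medians there became -0.11 and -0.02. The sign of these 2 medians therefore rests on the scaling. With it, 8 members were higher and 0 lower in Msc_2 vs. Msc_1, 1 higher and 3 lower in Msc_3 vs. Msc_2, and 0 higher and 4 lower for Msc_4 vs. Msc_2.

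The first pattern among the 12 was highest in Msc_2 and lowest in Msc_1, and it held members 13, 36, 40, 42 and 43. Member 13 had 4252, 10698, 7552 and 6380.39 FPKM from Msc_1 to Msc_4. Member 40 had 1367, 3841, 2406 and 2397 FPKM. Member 42 had 1141, 3482, 2214 and 1984 FPKM. All 3 were more than 2-fold higher in the adolescence than in the juvenile library. That the later libraries stood between both is fixed by the grouping. Member 43 had 1092, 3463, 1913 and 1738 FPKM, and its log2 difference of 1.66 in Msc_2 vs. Msc_1 was the largest of any member in any comparison. Member 36 differed less, with 2121, 4473, 2624 and 2769 FPKM. Together these 5 made up 1.31% of the FPKM of Msc_1, 3.40% of Msc_2, 2.03% of Msc_3 and 1.94% of Msc_4. The order of Msc_1 and Msc_2 in these shares is likewise fixed by the grouping.

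The second pattern was highest in Msc_2 and lowest in Msc_4, in members 15 and 28. Member 15 had 4384, 8674, 4507 and 4109 FPKM from Msc_1 to Msc_4, a single high value beside 3 close ones. Member 28 had 3359, 6689, 3368 and 2244 FPKM, also about level between Msc_1 and Msc_3. Both were past 2-fold in Msc_4 vs. Msc_2 and, under TMM scaling, in Msc_2 vs. Msc_1 and Msc_3 vs. Msc_2 as well.

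The third pattern was lowest in Msc_2 and highest in Msc_3, in members 12, 31 and 33. Member 12 had 7605, 3682, 10848 and 6946 FPKM from Msc_1 to Msc_4. It was the member past 2-fold lower in Msc_2 vs. Msc_1, a call that TMM scaling ends. Member 31 had 3416, 2460.17, 5138 and 3872 FPKM, and member 33 had 3380.45, 2234, 4790.01 and 3758 FPKM. These 3 held 1.89% of the FPKM of Msc_1, 1.10% of Msc_2, 2.52% of Msc_3 and 1.85% of Msc_4. The order of Msc_2 and Msc_3 in these shares is fixed by the grouping. With TMM scaling members 31 and 33 were no longer past 2-fold in any comparison, and members 39 (Msc_4 vs. Msc_2) and 44 (Msc_2 vs. Msc_1) were, so that which members are past 2-fold, and with them these patterns, depends on the scaling.

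The fourth pattern was lowest in Msc_1 and highest in Msc_4, in members 46 and 49, which also had the largest log2 differences of Msc_4 vs. Msc_1. Member 49 (c684789_g2) had 1056, 1878, 1604 and 2759 FPKM from Msc_1 to Msc_4, a log2 difference of 1.38 between the aged and the juvenile library. Member 46 (c660083_g2) had 1126, 1996, 1606 and 2838 FPKM, a log2 difference of 1.33. Both were higher in Msc_2 than in Msc_3, so that neither was higher in each later library. The ratio of member 46 to member 49 was 1.07, 1.06, 1.00 and 1.03 in Msc_1 to Msc_4, although they belong to different assembly components.

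**Figure D4:**
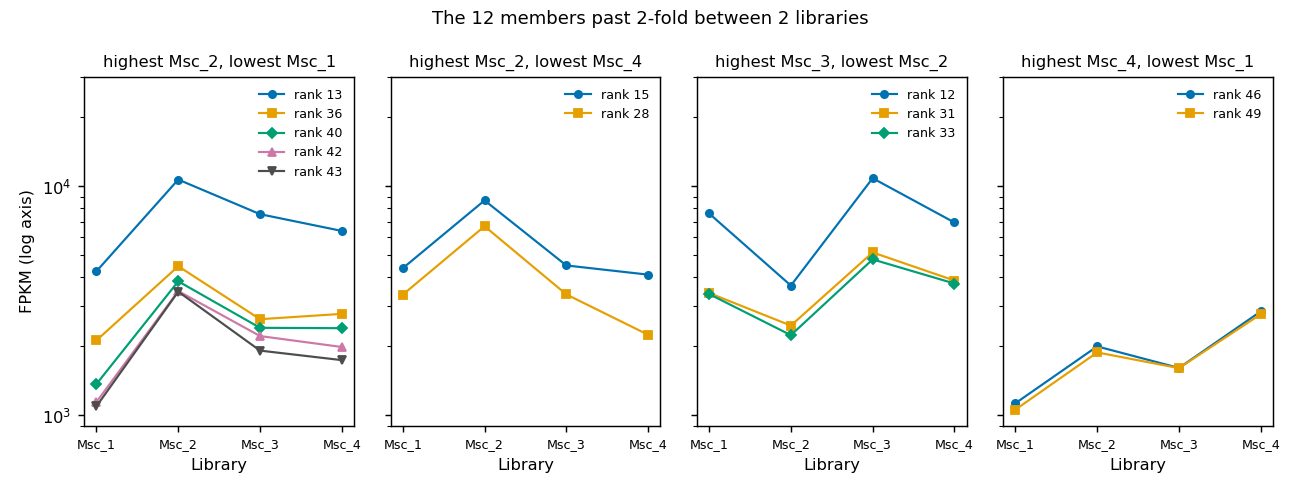
FPKM (y axis, log scale) of the 12 members past 2-fold between 2 libraries, in the 4 libraries in order of age (x axis, not to scale in years), 1 line per member and 1 panel for each pair of highest and lowest library. The first panel shows 5 members that peak in Msc_2, and the last shows the nearly overlapping lines of members 46 and 49.

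Differences in the other direction between Msc_4 and Msc_1 were smaller. Member 25 (c648453_g1) had 5719, 3905, 3389 and 3386 FPKM from Msc_1 to Msc_4, and its log2 difference of -0.76 was the lowest of the members. Most of this difference lay between the juvenile and the adolescence library, and the adult and aged libraries were level. Member 54 (c686347_g1) had 2074, 1069, 1554 and 1239 FPKM, a log2 difference of -0.74. It was lowest in Msc_2 and not in Msc_4. Neither was past 2-fold in any comparison, and both kept their direction in Msc_4 vs. Msc_1, where TMM scaling moves the log2 differences by -0.03.

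The FPKM of 5 members was higher in each later library and that of 3 was lower in each later one, which is 7.58% and 4.55% of the members. Over the gene models above 0.3 FPKM in all 4 libraries, these shares were 5.29% and 4.75%, so that the members' shares lay near those of all such gene models and nothing particular to the members is read from them. Members 5, 32, 41, 55 and 56 made up the first group and members 25, 45 and 53 the second. Member 32 had 2920, 3601, 3750.23 and 4611 FPKM, and member 53 had 1993, 1738, 1511 and 1419 FPKM. Both counts depend on the scaling. Over the 5 other scalings tried, between 2 and 4 members were higher and between 1 and 6 lower in each later library.

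By library, Msc_1 held the highest value of 14 members, Msc_2 that of 19, Msc_3 that of 17 and Msc_4 that of 16. The lowest value was that of Msc_1 for 23 members, of Msc_2 for 21, of Msc_3 for 5 and of Msc_4 for 17. As shares of the members, the highest value lay in Msc_1 to Msc_4 for 21.2%, 28.8%, 25.8% and 24.2%, beside 27.9%, 18.3%, 31.2% and 22.5% of the gene models with a mean between 100 and 1000 FPKM. For the lowest value the members' shares were 34.8%, 31.8%, 7.58% and 25.8%, beside 27.1%, 37.7%, 18.3% and 16.9%. Msc_3, the library with the highest summed FPKM, held the lowest value least often in the members without scaling. These counts move with the scaling. Over the 5 other scalings, Msc_1 was lowest for 19 to 24 members, Msc_2 for 15 to 24, Msc_3 for 9 to 14 and Msc_4 for 9 to 21. Msc_1 was then highest for 13 to 17 members, Msc_2 for 16 to 25, Msc_3 for 13 to 17 and Msc_4 for 10 to 20. Of the 12 members past 2-fold without scaling, 7 were highest in Msc_2 and 7 were lowest in Msc_1. The matching shares of other gene models past 2-fold were not computed, and which members are past it depends on the scaling. No pattern of the members with age is read from these counts.

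**Figure D5:**
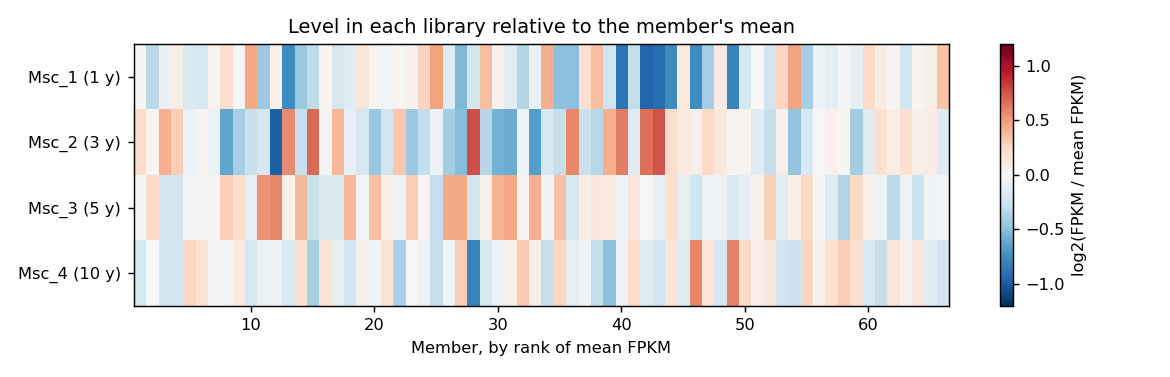
Level of each of the 66 members (x axis, by rank in mean FPKM) in each library (rows) as log2 of FPKM over the member's mean FPKM, from blue (below the mean) to red (above it). Msc_1 and Msc_2 hold the strongest colours, such as members 42 and 43 in blue in Msc_1 and in red in Msc_2, while most cells of Msc_4 are pale.

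The sums of the members moved by the balance of rises and falls. From Msc_1 to Msc_2, the higher members gained 59854 FPKM and the lower ones lost 37532, a net gain of 22322 FPKM. Members 3, 13 and 1 alone gained 19419 FPKM, and members 8, 10 and 12 lost 13834. From Msc_2 to Msc_3, gains of 58659 and losses of 47348 FPKM left a net gain of 11312 without scaling. The members' share of the library's FPKM was 43.8% in Msc_2 and 41.9% in Msc_3. The sign of this net change therefore rests on the scaling. Members 3, 4 and 1 lost 21276 FPKM at this step, so that members 1 and 3 were among the largest gains of the first step and the largest losses of the next. From Msc_3 to Msc_4, gains of 13120 FPKM stood against losses of 39238, and 45 of the 66 members were lower and 21 higher. With TMM scaling 27 members were higher. Over all gene models compared, the median log2 difference without scaling was 0.03, and the share of them that were lower was not computed. Within the members' sums, differences in single members thus in part offset each other.

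The 66 members came from 63 assembly components. Members 5, 27 and 35 belonged to 1 component, and members 23 and 33 to another. Gene models of 1 component can be parts or close copies of each other that share reads, so their values are uncertain one by one. Members 27 and 35 were both lower in Msc_1 and Msc_2 than in Msc_3 and Msc_4, with 2733, 2782, 5433 and 4903 FPKM in member 27 and 2375, 2751, 4254 and 3975 FPKM in member 35. Member 5 of the same component differed from them, and its ratio to member 27 was 4.69, 5.00, 2.62 and 3.53 from Msc_1 to Msc_4. Besides the members, these 63 components held 116 other gene models. Of these, 71 had a mean below 1 FPKM, 11 had a mean of 100 FPKM or more, and 1 reached 1000 FPKM in a library. Together they added between 0.63% (Msc_1) and 0.83% (Msc_3) of the FPKM of a library.

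The closest profiles were sought over all 2145 pairs of members, by the largest difference between their log2 levels after each was centred on its mean over the 4 libraries. The median over the pairs was 0.54. The closest pair was members 62 and 64, with 0.05, followed by members 45 and 48 and by members 46 and 49 at about the same value. Members 20 and 23 came next with 0.06, and members 31 and 33 were the pair at place 8, also with 0.06. All of the 8 closest pairs joined members of different components, and the 4 pairs within a component stood at places 129, 143, 661 and 1091. With 4 libraries such likeness is a description of these values.

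At the threshold, the members with the lowest values were member 59, with 1006 FPKM in Msc_2, and member 66, with 1028 FPKM in Msc_4. Just outside stood a gene model with 970.55 FPKM in Msc_1 and up to 1599.66 FPKM (Msc_3), and another with 968 FPKM in Msc_4 and up to 1184 FPKM (Msc_1). In all, 95 gene models reached 1000 FPKM in at least 1 library, so that 29 did so in 1 to 3 libraries and were no members. Of these, 6 missed the threshold in 1 library, 13 in 2 libraries and 10 in 3 libraries. Of the 6, 4 missed it in Msc_1. All 29 were listed in every library, and they held between 3.42% (Msc_1) and 3.87% (Msc_3) of the FPKM. Their median ratio of the highest to the lowest FPKM was 2.09, a value that the rule itself raises, since a gene model had to lie on both sides of 1000 FPKM to be among them. The gene model with the largest ratio of those with a mean of 1000 FPKM or more had 2463, 659, 1409 and 792 FPKM from Msc_1 to Msc_4.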

How the data were processed

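Longissimus dorsi RNA of 3 deer was pooled for each of 4 ages and sequenced on a HiSeq2500 from TruSeq libraries. The authors deposited FPKM values per gene model, scaled by them for length and library size and rounded to 2 decimals. The submitters' processing notes name Bowtie 0.12.2 without its role. Which programs assembled the gene models and counted fragments is not given in the sources used here, and neither is model length. The study's read test, DEGseq, needs counts and was not run.

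The 4 files were joined on the gene model in Python 3.11.15 (numpy 2.4.6, pandas 2.3.3), and a model not listed was set to 0. No scaling was applied. Rank correlations used scipy 1.17.1. In comparisons of 2 libraries, gene models above 0.3 FPKM in at least 1 of both entered and a pseudocount of 0.1 FPKM was added. The code was checked on simulated data for Msc_2 vs. Msc_1, where 200 of 142726 simulated gene models differed 4-fold and 200 were called with 0 false calls. The simulated noise was far smaller than the differences between the real libraries, and no change was planted in low values. This outcome was therefore fixed by the settings, and it says nothing about false calls in the real data. The members and lists were chosen with earlier results of these data known. By rule, identifiers are printed for the 2 members with the highest and the 2 with the lowest log2 change from Msc_1 to Msc_4. The first 10 members and the one with the largest ratio are described by rank, and other members named were chosen after their values were seen. Alternatives were other thresholds, scalings (trimmed mean of M-values, computed on FPKM after trimming each tail by 30% for M and 5% for A, median of ratios, upper quartile, the members' sum and, chosen after seeing the data, a sum of 1000000), a pseudocount of 1 and leaving out a library.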

Additional observations from a re-analysis of the deposited data

How the results depend on the processing

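No paired analysis was possible because no age had a second library and nothing was tested. Of 116 values recomputed under an alternative, 99 stayed within 1.5 times the value reported and 17 did not. This band is wide for shares of summed FPKM and for rank correlations, none of which left it. The correlation of Msc_3 vs. Msc_2, for example, counted as within it at 0.67 beside 0.88. The tally is therefore no measure of how firm the results are. The number of members was 112 at 500 FPKM and 39 at 2000 FPKM, and between 66 and 70 when each library was left out in turn. The members past 2-fold in Msc_4 vs. Msc_2 numbered 4 in place of 2 under upper-quartile and median-of-ratios scaling and under the trimmed mean of M-values. Shares of all gene models past 2-fold were not computed under these scalings. With a 1.5-fold limit the counts were 22 (Msc_2 vs. Msc_1), 14 (Msc_3 vs. Msc_1), 17 (Msc_4 vs. Msc_1), 21 (Msc_3 vs. Msc_2), 16 (Msc_4 vs. Msc_2) and 8 (Msc_4 vs. Msc_3). With members chosen by their mean, those past 2-fold numbered 10 in Msc_2 vs. Msc_1 and 4 in Msc_4 vs. Msc_1. The members within 1.5-fold numbered 27, and between 31 and 41 with 1 library left out, the highest without Msc_2. Fewer libraries can only narrow a range. The first 5 members held 30.0%, 28.1% and 29.3% of the members' FPKM in Msc_1, Msc_3 and Msc_4, being fewer than 10. The depth behind single values is unknown.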
